A study of Homo sapiens with 8 samples.

Results

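The 10 genes described here encode the main proteins that write, erase and read N6-methyladenosine (m6A) in messenger RNA, and they were taken by name from the 26830 gene symbols of the series. They were METTL3, METTL14, WTAP, ZC3H13 and RBM15 of the writer complex, the erasers FTO and ALKBH5, and the readers YTHDF1, YTHDF2 and YTHDF3. All 10 had values in all 8 libraries.

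In the writer complex, METTL3 carries the catalytic site and METTL14 is its partner, which helps to bind RNA. WTAP, ZC3H13 and RBM15 hold the complex in the nucleus and guide it to its sites. FTO and ALKBH5 are oxidases that remove the methyl group. The cytoplasmic YTHDF proteins bind methylated mRNA, and YTHDF2 is best known for bringing such mRNA to decay enzymes. METTL16, the gene targeted in this series, is a separate m6A methyltransferase known for methylating the MAT2A mRNA and the spliceosomal U6 RNA.

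The libraries came from 4 cultures labelled HEK293T, a human embryonic kidney line, all grown from 1 single clone that expresses Cas9 (the nuclease that a guide RNA directs to its target). One culture received a lentiviral control guide (sgNS), and the other 3 each received a different guide against METTL16 (sgMETTL16-1, sgMETTL16-2 and sgMETTL16-3). All were selected with blasticidin (10 µg/ml) and puromycin (2 µg/ml), and cycloheximide at 100 µg/ml was applied for 5 min before lysis to hold ribosomes in place. Each culture gave a pair of sequencing libraries, 1 of input RNA and 1 of ribosome footprints (RNA fragments of 17 to 34 nt shielded by ribosomes). With 1 sgNS culture, differences between guides and between cultures share 1 estimate of spread, and the labels do not say whether the cultures were set up independently. Values are TPM, a share of the library's transcripts corrected for gene length. The sgMETTL16 cultures are always given in the order sgMETTL16-1, sgMETTL16-2 and sgMETTL16-3, and sgNS is called the control.

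The labels and the transcripts differed. All 10 hepatocyte markers looked up, albumin and HNF4A among them, reached 10 TPM or more in every input, and their sum was 4730 TPM in sgNS and from 5832 to 8703 TPM in the sgMETTL16 inputs. Of 10 markers used for HEK293 cells, KRT8 (354 to 796 TPM), KRT18 (309 to 537) and TUBB3 (97.7 to 164) also reached 10 TPM in every input. NES (8.94 to 10.42 TPM), ENO2 (8.93 to 12.06) and CDH2 (6.13 to 12.03) were present in every input but did not reach 10 TPM in each. Another 4 were under 1 TPM in every input, of which the neurofilament genes NEFL and NEFM and vimentin (VIM) were listed at 0. VIM had 188, 85.2, 78.7 and 43.3 TPM in the footprints of the same cultures, so its 0 in the inputs cannot be read as absence. The cells are therefore called by their guides below. Blood, fibroblast and endothelial markers were under 1 TPM in all inputs for 4 of 5, 4 of 5 and 3 of 3 genes. Whether another cell type took part in a difference was not tested, and in bulk samples fewer cells of a type and less RNA per cell cannot be told apart. The control input held 5.31 TPM of METTL16 RNA and the METTL16-guide inputs 4.72, 5.25 and 4.16 TPM, a log2 change of -0.68 (SE 0.36, limma adjusted p = 0.482). That value depended on centring, and was -0.15 on TPM as deposited and -0.39 with TPM rescaled over protein-coding genes. METTL16 RNA did not pass the test on any of these scales, and an RNA level is no check of an edit in the gene.

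Promoters of the catalytic pair are shown because METTL3 and METTL14 work as 1 unit while their input levels, given next, were unequal in every library. The sequences are the 250 bases before each annotated start (RefSeq, GRCh38.p14), read 5′ to 3′ on the strand of the gene, at chr14:21511341-21511590 (minus strand) for METTL3 and chr4:118685142-118685391 (plus strand) for METTL14. Capitals mark matches, on either strand, to the ETS motif (CCGGAAG or CTTCCGG), the CCAAT box (CCAAT or ATTGG), the TATA motif (TATAAA or TTTATA) and the GC box (GGGCGG or CCGCCC).
METTL3: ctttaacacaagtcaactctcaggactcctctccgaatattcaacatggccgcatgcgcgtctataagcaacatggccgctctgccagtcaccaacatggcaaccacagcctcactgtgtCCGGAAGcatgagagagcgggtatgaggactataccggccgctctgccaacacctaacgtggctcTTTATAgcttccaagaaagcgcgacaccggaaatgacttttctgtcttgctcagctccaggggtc
METTL14: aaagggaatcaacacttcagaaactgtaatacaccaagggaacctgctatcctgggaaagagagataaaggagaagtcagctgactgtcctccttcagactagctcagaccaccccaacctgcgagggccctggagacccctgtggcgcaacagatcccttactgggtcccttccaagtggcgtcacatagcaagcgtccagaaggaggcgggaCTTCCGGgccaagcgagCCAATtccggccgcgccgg
Each promoter held 1 ETS match, which 8.52% of all 35116 promoters in the table have. METTL3 had 1 TATA match (10.7% of all promoters) and METTL14 had 1 CCAAT match (32.0%). Neither had a GC box match, found in 42.6% of all promoters and in 5 of the 9 members with an entry in the table. Their GC content was 53.2% and 57.2%, against a median of 58.0% over all promoters. A match describes letters only and shows no binding.

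Input RNA of the 5 writer genes was low to moderate. METTL3 (chromosome 14, 21498138 to 21511340, GRCh38.p14) had 5.55 TPM in the control, against 10.3, 7.14 and 3.32 TPM with the METTL16 guides (6.93 ± 3.51, SD, n = 3). The sgMETTL16-3 library was thus below the control and sgMETTL16-1 above it. METTL14 (chromosome 4, 118685392 to 118715430) was the lowest of the 10 genes in each of the 4 inputs, with 0.88 TPM in the control against 1.48, 2.77 and 0.95 TPM (1.73 ± 0.936, SD, n = 3). All 3 sgMETTL16 values lay above the control, by little in sgMETTL16-3. On TPM as deposited the control input was the lowest for 64.1% of the 10967 tested genes.

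WTAP (chromosome 6, 159726693 to 159756319), the adaptor that binds the METTL3 and METTL14 pair, had 8.56 TPM against 12.7, 19.5 and 7.25 TPM (13.2 ± 6.16, SD, n = 3). RBM15 (chromosome 1, 110339377 to 110346677), an RNA-binding subunit known for recruiting the complex to XIST and other RNAs, was at 8.20 TPM against 13.8, 13.5 and 9.26 TPM (12.2 ± 2.54, SD, n = 3). ZC3H13 (chromosome 13, 45954465 to 46052746), a zinc finger protein that keeps the complex in the nucleus, was at 1.98 TPM against 2.45, 2.93 and 1.16 TPM (2.18 ± 0.915, SD, n = 3). The groups overlapped for WTAP and ZC3H13, where sgMETTL16-3 was below sgNS. They did not for RBM15, with the control lowest as for 64.1% of tested genes.

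The erasers differed from each other in level. ALKBH5 (chromosome 17, 18183828 to 18209954) was the highest of the 10 genes in all 4 inputs, with 56.0 TPM in the control against 70.7, 69.7 and 62.3 TPM (67.6 ± 4.56, SD, n = 3). FTO (chromosome 16, 53703963 to 54121941) had 6.85 TPM against 14.3, 10.6 and 7.15 TPM (10.7 ± 3.55, SD, n = 3). All 3 sgMETTL16 values were above the control for both genes, as for 64.1% of tested genes. ALKBH5 exceeded FTO by 8.18 times in sgNS and by 4.96, 6.59 and 8.72 times in the 3 sgMETTL16 inputs, ratios that no rescaling of a library can alter.

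Among the readers, YTHDF1 came first in every input. YTHDF1 (chromosome 20, 63195429 to 63216131) had 24.6 TPM in the control against 37.3, 39.3 and 26.0 TPM (34.2 ± 7.14, SD, n = 3). YTHDF2 (chromosome 1, 28736624 to 28769775) was at 9.05 TPM against 19.1, 22.2 and 11.6 TPM (17.6 ± 5.44, SD, n = 3). YTHDF3 was at 2.32 TPM against 5.66, 8.75 and 3.01 TPM (5.81 ± 2.87, SD, n = 3). For each reader the control was the lowest library, as for 64.1% of tested genes, and sgMETTL16-2 the highest. Of the summed YTHDF TPM, YTHDF1 made up 68.4% in sgNS and 60.0%, 56.0% and 64.1% in the sgMETTL16 inputs, while YTHDF3 made up 6.45% against 9.12%, 12.5% and 7.41%. The YTHDF3 share was above the control in 3 of 3 cultures. This make-up was noticed in the values and is given as a description.

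**Figure D1:**
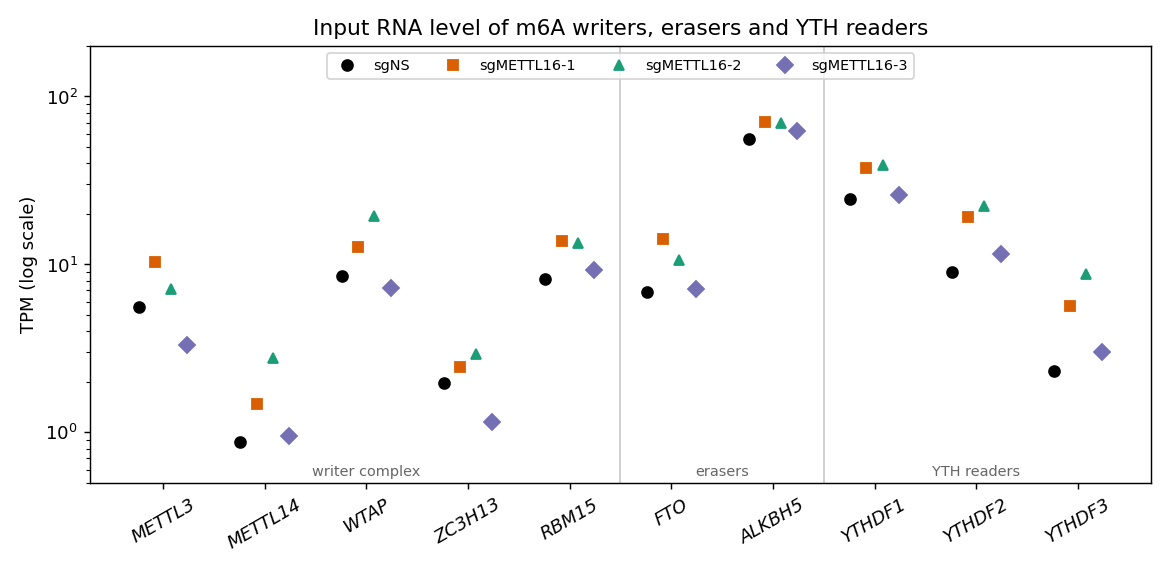
Input TPM (log axis) of the 10 genes by library, with 1 symbol per culture and vertical lines between the writer, eraser and reader genes. ALKBH5 lies between 56.0 and 70.7 TPM and METTL14 between 0.88 and 2.77 TPM, and sgNS and sgMETTL16-3 are the 2 lowest libraries for all 10 genes.

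Ordered by mean input TPM over the 4 libraries, the genes ran from ALKBH5 (64.7) through YTHDF1 (31.8), YTHDF2 (15.5), WTAP (12.02), RBM15 (11.2), FTO (9.71), METTL3 (6.59), YTHDF3 (4.94) and ZC3H13 (2.13) to METTL14 (1.52). Ranges over libraries were separate between ALKBH5 and YTHDF1 and between YTHDF1 and YTHDF2. Every later pair of neighbours overlapped, so their order was not resolved by ranges. Within a library, though, YTHDF2 was above WTAP, FTO above METTL3, YTHDF3 above ZC3H13 and ZC3H13 above METTL14 in 4 of 4 inputs. METTL3 exceeded METTL14 by 6.31 times in sgNS and by 6.98, 2.58 and 3.49 times in sgMETTL16-1, sgMETTL16-2 and sgMETTL16-3. Together the writers held 20.3% of the 10 genes' TPM in sgNS, the erasers 50.7% and the readers 29.0%. In the sgMETTL16 inputs the writers held from 16.6% to 23.4%, the erasers from 40.9% to 52.6% and the readers from 30.8% to 35.8%.

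The input comparison asked whether guides against METTL16 changed the RNA of the other m6A proteins. None of the 10 genes passed the threshold (limma adjusted p under 0.05), and 0 did so at an unadjusted p under 0.05. In the same fit 2.83% of 10967 genes passed, 1.58% higher and 1.25% lower, and 11.2% had an unadjusted p under 0.05. Without sgMETTL16-1 the count of 310 genes fell to 110, and without sgMETTL16-3 it was 664. Libraries were first centred on their median gene. The standard errors of this fit follow the trend of spread with level over all tested genes. They do not measure a gene's own spread between guides. Adding 1 TPM before centring lowers the changes of low genes that rose, and can turn their sign. METTL14 was at -0.04 here, at 0.17 and 0.0414 with pseudocounts of 0.1 and 0.5, and at -0.12 with 10. YTHDF3 had the highest change, 0.42 (SE 0.36, limma adjusted p = 0.802), and YTHDF2 followed at 0.32 (SE 0.38, adjusted p = 0.895). ZC3H13 had the lowest, -0.48 (SE 0.32, adjusted p = 0.659), followed by METTL3 at -0.36 (SE 0.37, adjusted p = 0.855) and ALKBH5 at -0.26 (SE 0.40, adjusted p = 0.929). The other 5 lay between -0.09 (YTHDF1) and -0.0047 (FTO). The median of the 10 was -0.05 and that of all tested genes -0.06.

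Scale decided the sign for most members. On TPM as deposited the median tested gene itself lay at 0.46, and all 10 members were above 0, with a median of 0.48. With TPM rescaled over protein-coding genes the median gene was at 0.31, the members' median at 0.29, and METTL3 and ZC3H13 were below 0. This rescaling raised all values against the same pseudocount and filter, so 13944 genes were tested in place of 10967. Its median gene is thus of another gene set. YTHDF2 and YTHDF3 were positive in every alternative run, from 0.27 to 0.84 and from 0.11 to 0.94. No member passed in any of 117 values from the alternatives, where the smallest adjusted p was 0.354 (limma). On TPM as deposited the sgNS input was the lowest of the 4 for 7 members, a pattern that 64.1% of all tested genes had. It was the highest for 0 members (5.37% of tested genes). With the protein-coding rescaling it was the lowest for 6 members (55.9%) and the highest for 0 (13.7%). After centring it was the lowest for 2 members, YTHDF2 and YTHDF3 (23.4%), and the highest for 3, ALKBH5, YTHDF1 and ZC3H13 (34.2%). None of these counts sets the members apart.

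**Figure D2:**
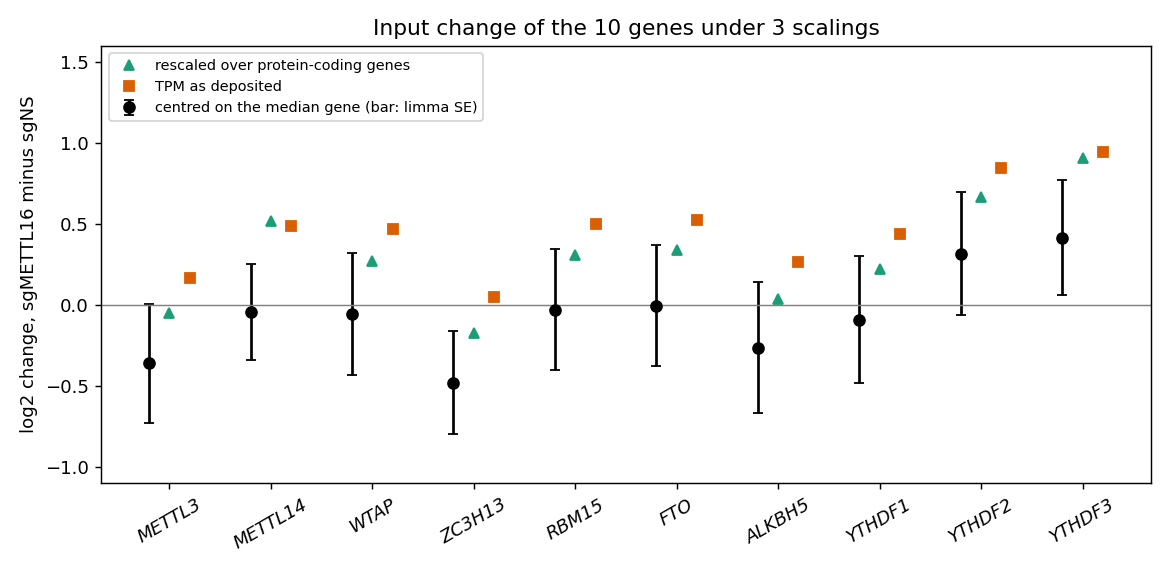
Log2 change in input RNA (sgMETTL16 minus sgNS) of the 10 genes under 3 scalings, with limma standard errors on the centred values. YTHDF2 and YTHDF3 are above 0 in all 3, and the values on TPM as deposited are all above 0, where the median tested gene was at 0.46.

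Spread between the 3 guides was wider than the guide effect for several writers. On TPM as deposited, METTL3 varied by 3.11 times between its highest and lowest sgMETTL16 input. METTL14 varied by 2.92, YTHDF3 by 2.91, WTAP by 2.70 and ZC3H13 by 2.53 times, where the median tested gene varied by 1.63 times. ALKBH5 varied by 1.13 times. After centring, the SD over the sgMETTL16 cultures was 0.47 (log2) for METTL3 and 0.04 for YTHDF1, against medians of 0.26 and 0.27 over the 1000 tested genes nearest to each in level. WTAP was at 0.36 against 0.27 and YTHDF3 at 0.34 against 0.25. METTL14, at 0.24 against 0.21, was near genes of its level, and ZC3H13, at 0.13 against 0.24, was below them. The sgMETTL16-1 and sgMETTL16-2 inputs also held more of their TPM in protein-coding genes (25.4% and 26.3%) than sgNS (20.3%) and sgMETTL16-3 (20.1%). The part of that gap in the members' spread was not tested beyond the rescaling given above.

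By Euclidean distance between centred log2 profiles, the protein-coding genes nearest to METTL3 were SNRNP40, a spliceosomal protein, at 0.03, and KIF4A, a kinesin of chromosomes, at 0.06. Among 10966 other tested genes, the writer subunits ranked 1114 (ZC3H13), 2125 (RBM15), 4095 (WTAP) and 6139 (METTL14) in nearness to METTL3. FTO, at rank 564, was the nearest of the other 9 members. With 4 libraries such distances are a description.

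Other m6A genes gave no input call either. Of 23 listed, 22 were tested, and none passed over all genes (2 at an unadjusted p under 0.05). METTL4 was under the level filter. The writer subunits KIAA1429 (now VIRMA), CBLL1 and RBM15B had a median log2 change of -0.24, other methyltransferases and cofactors -0.34 over 5 genes, other readers -0.19 over 10 genes, and decay partners of YTHDF2 0.10 over 4 genes. HNRNPA2B1, a nuclear m6A-binding protein, was at -0.97 (SE 0.39, limma adjusted p = 0.228). TRMT112, the cofactor of METTL5, was at -0.86 (SE 0.40, adjusted p = 0.374), and CNOT7, a deadenylase of the CCR4-NOT complex, at 0.71 (SE 0.37, adjusted p = 0.463). Without sgMETTL16-3 the last 2 passed, TRMT112 at -1.002 (limma adjusted p = 0.0166) and CNOT7 at 0.97 (adjusted p = 0.0486), while without sgMETTL16-1 the adjusted p was 1 for both.

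Footprints of the same genes were few. METTL3 and YTHDF2 were above 0 in all 4 footprint libraries, METTL14, RBM15, ALKBH5, YTHDF1 and YTHDF3 in 3, WTAP and ZC3H13 in 2, and FTO in 1. METTL3 had 28.42 footprint TPM in the control, against 15.01, 20.81 and 28.35 TPM with the METTL16 guides. YTHDF2 had 20.23 TPM against 21.38, 37.06 and 20.18 TPM. The METTL3 control was level with sgMETTL16-3 and above the other two, and the YTHDF2 control was level with sgMETTL16-3 and below them.

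Footprints of the other writers came and went between libraries. METTL14 was listed at 0 in the control and had 8.60, 5.96 and 8.12 TPM with the METTL16 guides. WTAP had 51.1 TPM in the control and 27.0 TPM in sgMETTL16-1, and was listed at 0 in the other two. WTAP was thus seen in the control, unlike METTL14. ZC3H13 was listed at 0 in sgNS and sgMETTL16-3 and stood at 14.0 and 6.49 TPM in sgMETTL16-1 and sgMETTL16-2. RBM15 had 34.4 TPM in the control, 18.2 TPM in sgMETTL16-1 and 8.57 TPM in sgMETTL16-3, and was listed at 0 in sgMETTL16-2. The groups did not overlap for METTL14, with the control below, or for WTAP, RBM15 and, by a narrow margin, METTL3, with the control above.

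The erasers and remaining readers were as uneven. ALKBH5 was listed at 0 in the sgNS footprints and had 26.3, 6.09 and 8.29 TPM with the METTL16 guides, so its groups did not overlap. FTO was above 0 in sgMETTL16-3 alone, at 6.62 TPM. YTHDF1 had 17.6 TPM in the control, 27.8 TPM in sgMETTL16-1 and 6.43 TPM in sgMETTL16-2, and was listed at 0 in sgMETTL16-3. YTHDF3 had 10.7 TPM in the control, 11.3 TPM in sgMETTL16-1 and 15.7 TPM in sgMETTL16-2, and was listed at 0 in sgMETTL16-3. The control lay inside the range of the other libraries for both readers. Over the 10 genes the control was the lowest footprint library for 2 (7.68% of tested genes) and the highest for 3 (31.2%).

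**Figure D3:**
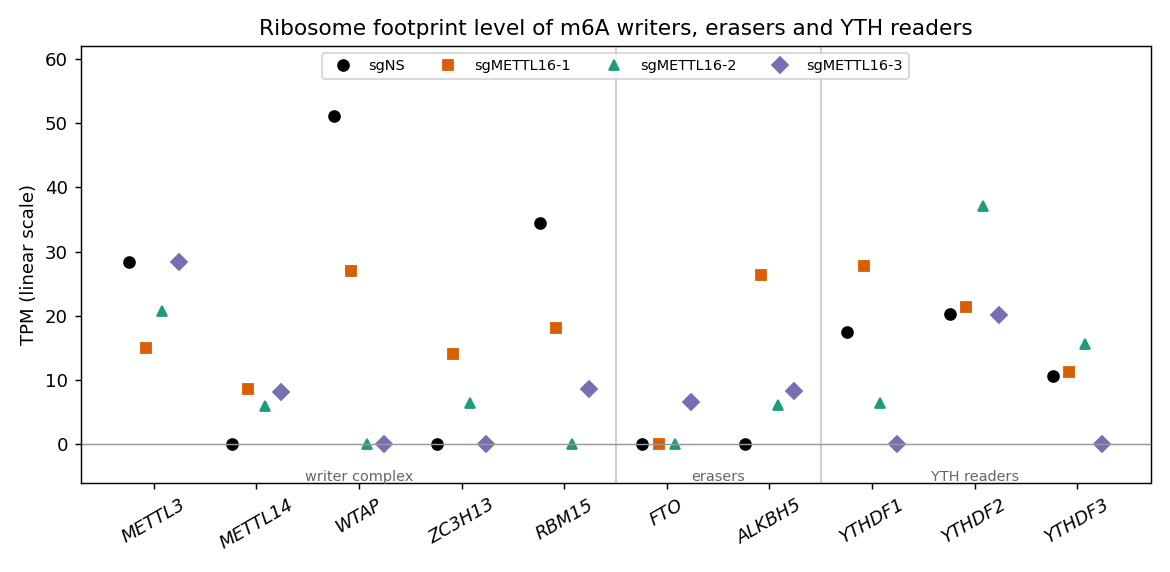
Footprint TPM (linear axis) of the 10 genes by library, with symbols as for the input levels. Of the 40 values 12 are listed at 0, and the highest is WTAP in sgNS at 51.1 TPM.

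These values moved in steps. Between a pair of footprint libraries 1 ratio of TPM was the most frequent. It was 1.89 for sgNS to sgMETTL16-1, 2.73 to sgMETTL16-2 and 2.01 to sgMETTL16-3. Within 0.02 (natural log) it held for 28.9%, 23.6% and 33.8% of the genes above 0 in both libraries. After division by these ratios, the values of all 9 members seen in 2 or more footprint libraries were whole multiples of 1 unit per gene, to within 0.0641%. In sgNS, sgMETTL16-1, sgMETTL16-2 and sgMETTL16-3 in turn, METTL3 held 1, 1, 2 and 2 units. YTHDF2 held 1, 2, 5 and 2 units, and YTHDF3 held 1, 2, 4 and 0. YTHDF1 held 1, 3, 1 and 0 units and ALKBH5 0, 3, 1 and 1. METTL14 held 0, 1, 1 and 1 units, WTAP 1, 1, 0 and 0, RBM15 2, 2, 0 and 1, and ZC3H13 0, 3, 2 and 0. A unit is what 1 read would add, unless every value of a gene rests on the same multiple of reads. Summed over the 4 libraries, the 9 members held from 2 (WTAP) to 10 (YTHDF2) units. Among 5983 protein-coding genes with footprints in 2 or more libraries, 97.1% could be described by whole units (up to 12 in the lowest library, tolerance 0.5%). With up to 12 allowed there, such a fit is easily reached. No chance rate was computed, so that share does not bear on the steps. The lowest library above 0 held 1 unit for 78.6% of these genes and for 8 of the 9 members.

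Such steps set what a difference can mean here. For METTL14 a unit was worth 16.3 TPM in sgNS, far above its input of 0.88 TPM there, so a listed 0 in sgNS and 8.60 TPM in sgMETTL16-1 are 1 unit apart. The WTAP values of 51.1 and 27.0 TPM are 1 unit each. In total the 9 members held 7 units in sgNS, 18 in sgMETTL16-1, 16 in sgMETTL16-2 and 7 in sgMETTL16-3. A unit was worth 1.89, 2.73 and 2.01 times more TPM in sgNS than in these sgMETTL16 libraries in turn. Units of different libraries are therefore not on 1 scale, and more units do not mean a higher footprint level.

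The footprint comparison between guides called none of the 10 members (limma adjusted p under 0.05, and 0 at an unadjusted p under 0.05). Over all 9297 tested genes 5.22% passed, 0.0645% higher and 5.15% lower, and 10.3% had an unadjusted p under 0.05. All 479 lower genes were listed at 0 in all 3 sgMETTL16 libraries and all 6 higher genes at 0 in sgNS. Without any 1 of the METTL16-guide cultures the count was 0 (limma, 1171 to 1270 genes at an unadjusted p under 0.05). YTHDF2 was at 0.59 on the log2(scaled TPM + 10) scale (SE 0.40, limma adjusted p = 0.702), METTL3 at 0.10 (SE 0.65, adjusted p = 0.921) and YTHDF3 at -0.08 (SE 0.70, adjusted p = 0.942). WTAP was at -1.68 (SE 1.03, adjusted p = 0.702), RBM15 at -0.96 (SE 0.78, adjusted p = 0.702) and YTHDF1 at -0.38 (SE 0.92, adjusted p = 0.788). These sizes rest on libraries listed at 0 and on the pseudocount, and with 1 in place of 10 WTAP was at -3.74, RBM15 at -2.08, YTHDF1 at -1.32 and YTHDF3 at -0.69. RBM15 was at -0.45 without sgMETTL16-2, and YTHDF1 and YTHDF3 were at 0.11 and 0.40 without sgMETTL16-3. For METTL14, ZC3H13, FTO and ALKBH5 no fold is given, since sgNS was listed at 0, and the smallest adjusted p was 0.625 (METTL14, limma). Among the 23 other m6A genes 1 of 21 tested passed: METTL16, with 19.8 TPM in the control and listed at 0 in the other 3 (limma adjusted p = 0.0451). That value may be 1 unit, and without any single sgMETTL16 culture METTL16 did not pass (adjusted p from 0.113 to 0.306).

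Translation efficiency, the footprint to input ratio that the series set out to compare, gave no member call. None of 10 had an unadjusted p under 0.05, where 0.3% of 8002 genes passed the threshold (0.0375% higher and 0.262% lower) and 8.06% had such a p. With the culture as a block 0 genes passed in place of 24 (limma, 425 at an unadjusted p under 0.05), as was so without any 1 of the METTL16-guide cultures (470 to 1202). WTAP had the lowest interaction among members with footprints in sgNS, -1.35 (SE 0.87, limma adjusted p = 0.849), and RBM15 was at -0.76 (SE 0.71, adjusted p = 0.877). YTHDF2 was at 0.34 (SE 0.55, adjusted p = 0.883), METTL3 at 0.31 (SE 0.69, adjusted p = 0.890), YTHDF1 at -0.16 (SE 0.83, adjusted p = 0.947) and YTHDF3 at -0.25 (SE 0.60, adjusted p = 0.894). The standard errors of these 6 ran from 0.55 to 0.87, so a difference of 1 log2 unit was under 2 standard errors for each. The sign changed with the setting for 4 of them: METTL3 and YTHDF2 were at -0.41 and -0.29 on TPM as deposited, and METTL3, YTHDF1 and YTHDF3 at -0.033, 0.31 and 0.050 without sgMETTL16-3. WTAP and RBM15 stayed below 0 in the alternatives run, from -3.40 to -0.95 and from -2.05 to -0.45. None of the 20 other m6A genes tested passed (1 at an unadjusted p under 0.05).

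Set against input over all 4 cultures, footprints were lower for ALKBH5, FTO and YTHDF1 and for no other member. ALKBH5 showed the widest gap, with inputs from 56.0 to 70.7 TPM and footprints from 0 to 26.3 TPM, which did not overlap. The log2 difference was -2.60 (SE 0.37, limma adjusted p = 0.000742), and it was lower in 4 of 4 cultures. It passed in all 11 alternatives, from -4.02 to -2.04. YTHDF1 was at -1.67 (SE 0.34, adjusted p = 0.00354), though not past the threshold on TPM as deposited (-1.02, limma adjusted p = 0.15) or rescaled over protein-coding genes (-1.84, adjusted p = 0.116). FTO was at -0.998 (SE 0.24, adjusted p = 0.00882) and passed in 5 of 9 alternatives. Without sgMETTL16-1 or sgNS it was at -0.85 (limma adjusted p = 0.0706) and -0.92 (adjusted p = 0.0579). It also missed the threshold on TPM as deposited (-0.78, limma adjusted p = 0.0847) and with the protein-coding rescaling (-1.66, adjusted p = 0.139). The size depended on the pseudocount: with 5 and 1 in place of 10, FTO was at -1.51 and -3.03, and YTHDF1 at -2.11 and -2.96. No value without sgMETTL16-3, the one library with an FTO footprint, could be given for FTO.

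Lower footprints were common, so 3 of 10 is no result about these genes as a group. In this fit 37.5% of 8002 genes passed, 33.1% lower and 4.34% higher (2650 and 347 genes), and 45.9% had an unadjusted p under 0.05, as the same 3 members did. On TPM as deposited the split was 673 lower and 357 higher, and with the protein-coding rescaling 771 and 479. Groups that did not overlap on TPM as deposited were seen for ALKBH5 and FTO among lower members (13.5% of tested genes) and for METTL3 among higher ones (7.32%). METTL3 was at 0.52 (SE 0.29, limma adjusted p = 0.189) and METTL14 at 0.26 (SE 0.20, adjusted p = 0.345). YTHDF2, YTHDF3 and ZC3H13 lay between -0.14 and 0.0048 with signs that changed between settings, and RBM15 and WTAP were at -0.43 and -0.51 (adjusted p = 0.337 and 0.390). The median of the 10 was -0.28 against -0.37 over all tested genes.

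**Figure D4:**
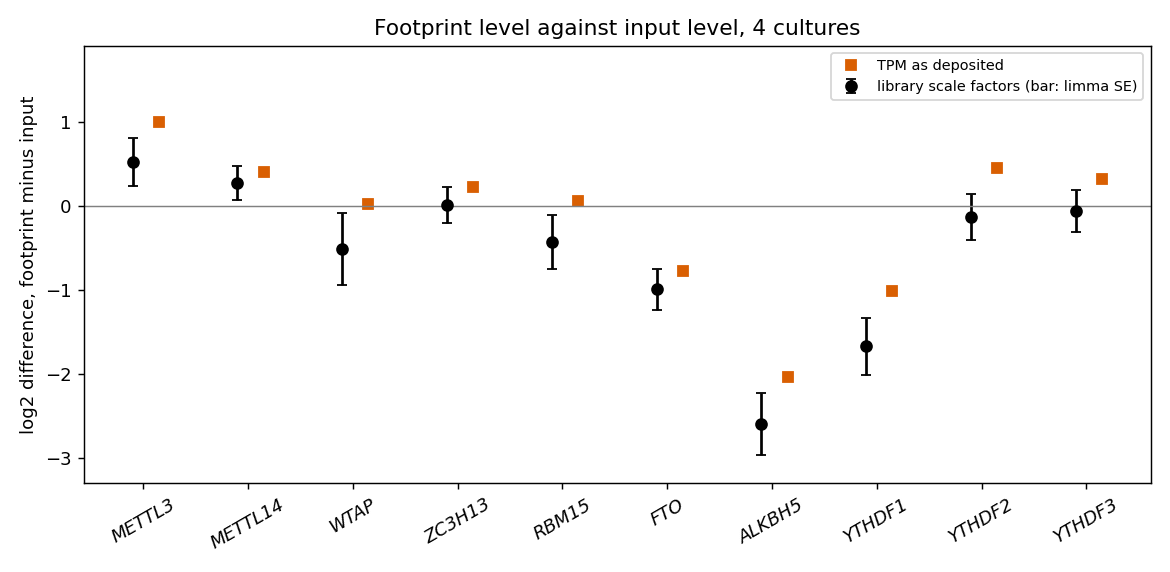
Log2 difference between footprint and input level over 4 cultures (scaled TPM + 10) for the 10 genes, with limma standard errors, beside the values on TPM as deposited. ALKBH5 is the lowest member on both scales, at -2.60 and -2.04, and METTL3 the highest.

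In units a like contrast can be read without a pseudocount, but on TPM as deposited, without the scale factors of the fit. On that scale YTHDF1 and FTO did not pass in the fit, and the signs of YTHDF2 and YTHDF3 turned positive. Had the footprint TPM equalled the input TPM of its culture, ALKBH5 would have given 30.4 units over the 4 libraries, and 5 were seen. For YTHDF1 the numbers were 14.5 and 5, and for FTO 5.80 and 1 (taking its lone value as 1 unit). Members with more units than that were METTL3 (1.80 and 6), METTL14 (0.808 and 3), ZC3H13 (1.91 and 5), YTHDF2 (6.38 and 10) and YTHDF3 (4.01 and 7). WTAP (1.97 and 2) and RBM15 (5.22 and 5) were even. A member at a low input level could show 0 or at least 1 unit only, so its ratio says little. Both kinds of TPM are shares of different mixtures, since the protein-coding part ranged between 20.1% and 26.3% in the inputs and between 11.9% and 28.2% in the footprints.

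**Figure D5:**
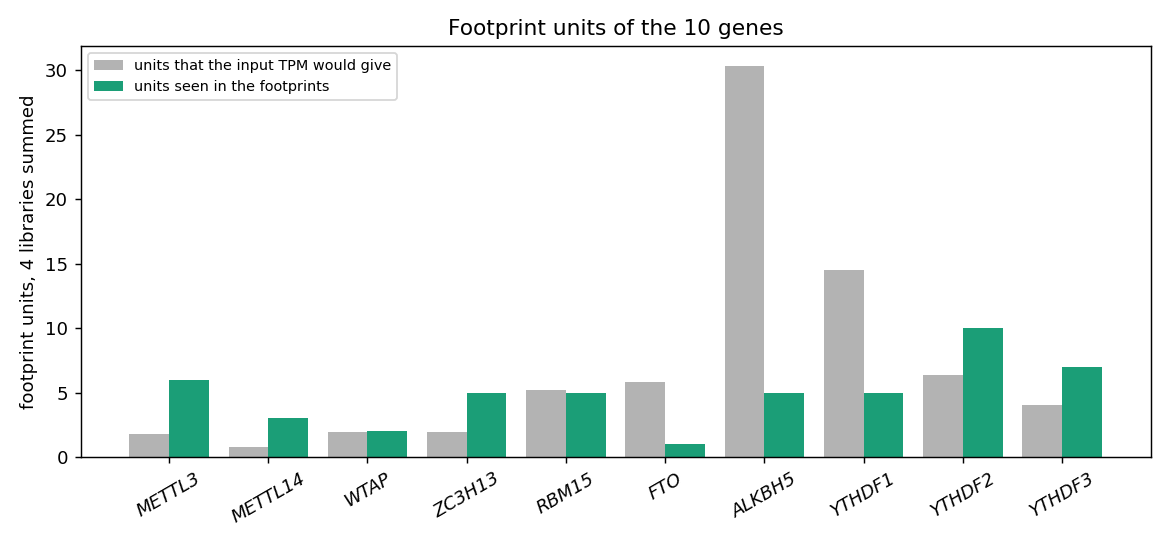
Footprint units (what 1 read would add) of the 10 genes summed over 4 libraries: green bars give the units seen, grey bars those that the input TPM as deposited would give. ALKBH5 has 5 against 30.4 and YTHDF1 5 against 14.5.

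Among other m6A genes in this contrast, 8 of 20 tested passed, 6 lower and 2 higher, close to the 37.5% of all tested genes, so the count does not set this list apart. The m6A-binding proteins IGF2BP1 and PRRC2A were lower, at -2.67 (SE 0.34, limma adjusted p = 0.000528) and -2.41 (SE 0.33, adjusted p = 0.000611), and both passed in every alternative that gave a value. IGF2BP2 (-1.56), the deadenylase scaffold CNOT1 (-1.06), the helicase UPF1 (-1.38) and the writer-associated ubiquitin ligase CBLL1 (-0.57) were lower as well. These 4 did not pass on TPM as deposited (adjusted p from 0.149 to 0.6) or with TPM rescaled over protein-coding genes (0.196 to 0.55), nor did UPF1 with a pseudocount of 1 (limma adjusted p = 0.0529) or CBLL1 with the culture as a block (limma adjusted p = 0.0663). CNOT1 and UPF1 did not pass without sgMETTL16-1 (limma adjusted p = 0.0694 and 0.0737) or sgMETTL16-3 (0.0534 and 0.0866), nor CNOT1 without sgNS (0.0617). CBLL1 did not pass without sgMETTL16-2, sgMETTL16-3 or sgNS (limma adjusted p from 0.118 to 0.148). Its only footprint value above 0 was 6.79 TPM in sgMETTL16-1, so no value without that culture could be given. HNRNPA2B1 was higher at 1.39 (SE 0.38, adjusted p = 0.0143), with inputs of 17.65 to 48.4 TPM and footprints of 109 to 389 TPM, and RBMX, an RNA-binding protein of the hnRNP family, at 1.39 (SE 0.34, adjusted p = 0.0089). Without sgMETTL16-1 neither passed (limma adjusted p = 0.0868 for HNRNPA2B1 and 0.0563 for RBMX), nor did RBMX without sgMETTL16-2 (0.0548) or sgNS (0.0519).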

How the data were processed

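Input RNA and ribosome footprints were measured in 4 cultures (8 libraries). The deposited values are TPM per gene, and the submitters' processing notes name STAR, RSEM 1.2.31 and the GRCh38 build. The STAR release is not given in the sources used here. TPM has the same total in every library, so it gives shares and no read totals, and the depth of the libraries is unknown. Counting intervals were not computed. From 4362 to 6735 genes were above 0 in a footprint library and from 17982 to 18805 in an input.

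The fits used limma (version 3.58.1, under R 4.3.3) with an intensity trend and Benjamini-Hochberg adjustment over all tested genes (threshold 0.05). Input values were log2(TPM + 1), with genes of mean TPM 1 or more and every library centred on its median gene. In the footprints centring is poorly defined, as most genes are listed at 0. Footprint, translation efficiency and footprint against input fits therefore used log2(scaled TPM + 10), with library scale factors from genes above 0 in all libraries of the fit (1870 or 1838 genes), which leave a 0 at 0. Spread around the single control culture was taken to equal that of the other cultures. In the input fit limma gave no weight to a gene's own spread (prior degrees of freedom infinite). Each input SE and p there rests on the spread of tested genes at a like level. Input and footprint libraries of the same name come from 1 culture, per the labels' protocols. Same-numbered deviations correlated at 0.06, -0.00371 and 0.02 over 8002 genes. Those of different number correlated from -0.06 to 0.04, so these values do not tell the pairs apart. Scripts were tested on simulated data. Gene types and promoters came from RefSeq (GRCh38.p14), matched by symbol. All 10 members were named in every comparison. Other m6A genes were named when past the threshold or among the 3 smallest p in the input. The members, lists and this rule were chosen with earlier results of these data known. Alternatives covered pseudocounts, filters, scalings, the variance trend, the culture block and leaving out each culture.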

Additional observations from a re-analysis of the deposited data

How the results depend on the processing

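In the input, 310 genes passed, against 110 to 664 with each METTL16-guide culture left out in turn, 23 on TPM as deposited, 532 with quantile normalization and 104 with TPM rescaled over protein-coding genes. In the footprints, 485 passed, against 123 at a mean TPM of 10 or more and 0 with each METTL16-guide culture left out, with TPM rescaled over protein-coding genes, with no filter and with log2(TPM + 1) centred on the median tested gene (957 to 1270 genes at an unadjusted limma p under 0.05 in these). For translation efficiency 24 passed, against 0 with each METTL16-guide culture left out (470 to 1202 at an unadjusted limma p under 0.05), 204 on TPM as deposited, 9 with a pseudocount of 5, 199 with the protein-coding rescaling, 231 with no filter and 5 at a mean TPM of 10 or more. The replicate block, which pairs input and footprints of a culture, gave 0 (425 at an unadjusted limma p under 0.05). It changed the call of no member in either fit that it entered. For footprints against input 2997 passed, against 1622 to 1831 with each culture left out, 1030 on TPM as deposited, 1250 with the protein-coding rescaling and 1106 at a mean TPM of 10 or more. No member passed in 117 input, 95 footprint and 94 translation efficiency values from these alternatives (limma). In footprints against input 25 of 104 did. The order of the members by input level was the same after rescaling over protein-coding genes. For the sign changes of members given next, the cause was not tested, and differences against a control listed at 0 are fitted values and no folds. In the input, the sign changed with a pseudocount of 0.1 for METTL14 (0.17). With a pseudocount of 0.5 the same held for METTL14 (0.0414). With a pseudocount of 10 the same held for WTAP (0.0572), RBM15 (0.0508), FTO (0.051), ALKBH5 (0.00243) and YTHDF1 (0.11). With no filter on low values the same held for METTL14 (0.10), WTAP (0.0827), RBM15 (0.11), FTO (0.14) and YTHDF1 (0.050). At a mean TPM of 5 or more the same held for RBM15 (0.0202) and FTO (0.044). On TPM as deposited the same held for METTL3 (0.17), METTL14 (0.49), WTAP (0.47), ZC3H13 (0.0487), RBM15 (0.50), FTO (0.52), ALKBH5 (0.26) and YTHDF1 (0.44). With quantile normalization the same held for METTL14 (0.0277), RBM15 (0.0136), FTO (0.0104) and YTHDF1 (0.0303). With TPM rescaled over protein-coding genes the same held for METTL14 (0.52), WTAP (0.27), RBM15 (0.31), FTO (0.34), ALKBH5 (0.0374) and YTHDF1 (0.22). With each culture left out in turn, the sign changed for METTL14 from -0.17 to 0.0533, RBM15 from -0.0691 to 0.0257, FTO from -0.17 to 0.11 and WTAP from -0.24 to 0.10. In the footprints, the sign changed on TPM as deposited for METTL3 (-0.31). With TPM rescaled over protein-coding genes the same held for METTL3 (-0.0575). With log2(TPM + 1) centred on the median tested gene the same held for METTL3 (-2.57), FTO (-1.15) and YTHDF2 (-1.82). With each culture left out in turn, the sign changed for METTL3 from -0.17 to 0.37, YTHDF1 from -0.82 to 0.11 and YTHDF3 from -0.28 to 0.40. In translation efficiency, the sign changed on TPM as deposited for METTL3 (-0.41), FTO (-0.0352) and YTHDF2 (-0.29). With TPM rescaled over protein-coding genes the same held for METTL3 (-0.0347). With each culture left out in turn, the sign changed for METTL3 from -0.0331 to 0.67, YTHDF1 from -0.54 to 0.31 and YTHDF3 from -0.36 to 0.050. In footprints against input, the sign changed with a pseudocount of 1 for ZC3H13 (-0.49). With a pseudocount of 5 the same held for ZC3H13 (-0.0454). On TPM as deposited the same held for WTAP (0.0181), RBM15 (0.0607), YTHDF2 (0.45) and YTHDF3 (0.32). With TPM rescaled over protein-coding genes the same held for YTHDF2 (0.68) and YTHDF3 (0.30). With each culture left out in turn, the sign changed for ZC3H13 from -0.18 to 0.18 and YTHDF3 from -0.13 to 0.15. TPM holds no read totals, so a limit of detection could not be set, and no member had more than 5 units in a footprint library.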
